A study of Mus musculus with 12 samples.

Results

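Expression of the clock output transcription factors was examined in liver and lung of newborn *Man1a2* null and wild-type (WT) mice. The 7 genes are the PAR bZIP activators *Dbp*, *Tef* and *Hlf*, their antagonist *Nfil3*, the DEC repressors *Bhlhe40* and *Bhlhe41*, and the repressor *Ciart*. They were chosen by symbol from the 24421 genes listed for each library, and because several of them differed between null and WT in earlier results of these same data, so every null against WT value of these genes is given as a description and not as a test. The difference between WT liver and WT lung was not named in that choice and was tested. That test uses the same WT libraries as the null against WT values, so it is not independent of the choice.

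The poly-A RNA libraries came from 4 groups with 3 libraries each: WT liver, null liver, WT lung and null lung. Null pups were homozygous (-/-) for the Man1a2tm1.1Ahe allele, a deletion of exon 2 in all cells, and were bred from +/- parents, as the WT pups carrying no deleted allele were. *Man1a2* encodes a Golgi mannosidase that trims N-glycans, and null pups die of respiratory failure. Tissue was taken from newborns of all groups within 30 to 60 minutes of birth, untreated, and the time of day was not given in the sources used here. The study's methods name 3 newborn mice of each genotype as the source of liver and lung RNA. The labels do not say whether a liver and a lung of the same number came from the same pup.

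The circadian clock is a feedback loop in which CLOCK and ARNTL (BMAL1) switch on genes through E-box elements, and the PER, CRY and REV-ERB proteins hold that activity back. The PAR bZIP factors carry the loop's timing to other genes by binding D-box elements, where NFIL3 (E4BP4) competes as a repressor. BHLHE40 (DEC1), BHLHE41 (DEC2) and CIART (CHRONO) feed back on CLOCK and ARNTL, and in adult liver *Dbp* and *Ciart* are among the genes with the strongest daily swing.

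Totals ranged from 26759463 to 42914295 counts a library, at which 3 counts correspond to 0.0699 to 0.112 CPM, counts scaled to the library total. All CPM values were scaled by trimmed mean of M-values (TMM) over the 12 libraries. *Man1a2* stood at 87.0, 54.2 and 68.5 CPM in WT liver and at 53.7, 48.2 and 50.1 CPM in null liver, and at 104.7, 75.5 and 107 CPM in WT lung and 42.7, 49.7 and 50.2 CPM in null lung. In both tissues the highest null library was below the lowest WT library, although the difference did not pass the threshold in liver (log2 fold change −0.47 ± 0.17 SE, edgeR adjusted p = 0.0809) or lung (−1.01 ± 0.18, adjusted p = 0.0614). DESeq2 called it in both tissues, and edgeR in lung without the library null lung 1 (−0.95 ± 0.16). The table counts the whole gene rather than the deleted exon.

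The library labelled null lung 1 went against its tissue label. Its 7 lung epithelium markers summed to 478 CPM, against at least 19320 CPM in the other 5 lungs, and *Sftpc*, surfactant protein C, was at 26.6 CPM against at least 11900 CPM. Its 6 skeletal muscle markers summed to 9736 CPM (18.5 to 55.7 CPM in the other lungs) and its 5 cardiac muscle markers to 14770 CPM (140 to 439 CPM). Null lungs 2 and 3 also lay above the WT lungs, with skeletal muscle sums of 55.7 and 42.8 CPM against 18.5 to 24.3 CPM. Their cardiac muscle sums were 439 and 326 CPM against 140 to 216 CPM in WT lung. The library labelled null liver 1 held 7820 CPM of the skeletal muscle markers (6.77 to 10.2 CPM in the other livers) beside hepatocyte markers within the range of the other livers. The 4 cartilage markers summed to 622 CPM in null liver 1 (0.342 to 0.598 CPM in the other livers). In null lung 1 they summed to 362 CPM (0.632 to 4.65 CPM in the other lungs). Null lung 1 also had the highest lung sums of thymus and T cell markers (15.4 CPM) and brown fat markers (99.2 CPM). Brown fat markers summed to 43.6 and 30.2 CPM in null lungs 2 and 3 and to 9.52 to 13.6 CPM in WT lung. Null against WT values of the 7 genes are therefore also given without null liver 1 in liver and null lung 1 in lung. Leaving out null lung 1 does not remove the smaller muscle and brown fat marker differences of null lungs 2 and 3. The 4 haemoglobin genes of the erythroid list were listed at 0 in all 6 livers. In bulk tissue, fewer cells of a type and less RNA per cell cannot be told apart.

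The sequence upstream of these genes was read first, since E-boxes are where CLOCK and ARNTL and the DEC proteins bind. RefSeq promoter windows of GRCm38.p6, 250 bases before each transcription start, were found for 6 of the 7 genes, with 2 starts for *Tef*. The E-box letters CACGTG, which read the same on both strands, occurred in the windows of 3 genes, *Ciart*, *Bhlhe41* and *Tef*, and in 6.02% of all 32851 windows. *Ciart* held 3 of them, at −116, −58 and −44 from its start, a number reached in 20 of all windows (0.0609%). *Bhlhe41* held 1 at −153, and *Tef* held 1 before each of its starts, at −127 and −138. The windows of *Dbp*, *Hlf* and *Nfil3* held none. Sequence outside the windows, within the genes or farther upstream, was not searched, so E-boxes there would be missed. The bases directly after the *Hlf* start were not found in full in any annotated transcript of the gene, unlike those of the other windows. The related E′-box CACGTT (in 3.85% of all windows) and the D-box words TTACGTAA, TTATGTAA and TTATGCAA (1.61%), each searched on both strands, were in no window of the 7 genes. The E-box and the E′-box share 5 letters but were counted apart. Shown here 5′ to 3′ on the strand of the gene are the 3 stretches with E-boxes outside the gene's own annotated exons, with each E-box in capitals, and that of *Hlf*, the gene that was lower in null liver, in which no letter is in capitals. They are chr3:95882252-95882478 on the minus strand for *Ciart*, chr6:145865559-145865670 on the minus strand for *Bhlhe41*, chr15:81811164-81811413 on the plus strand for the second start of *Tef*, and chr11:90390918-90391167 on the minus strand for *Hlf*.
Ciart: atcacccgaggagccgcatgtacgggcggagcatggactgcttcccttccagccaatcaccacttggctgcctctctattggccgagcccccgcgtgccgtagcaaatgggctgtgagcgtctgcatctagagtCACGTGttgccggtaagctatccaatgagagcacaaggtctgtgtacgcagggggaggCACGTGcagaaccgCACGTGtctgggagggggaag
Bhlhe41: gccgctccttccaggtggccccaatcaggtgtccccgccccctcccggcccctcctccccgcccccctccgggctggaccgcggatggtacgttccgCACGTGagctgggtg
Tef: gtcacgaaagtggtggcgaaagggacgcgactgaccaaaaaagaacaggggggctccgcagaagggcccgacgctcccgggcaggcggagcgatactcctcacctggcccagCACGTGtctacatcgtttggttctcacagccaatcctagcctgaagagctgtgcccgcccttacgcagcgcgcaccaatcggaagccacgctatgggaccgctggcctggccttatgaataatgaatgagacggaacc
Hlf: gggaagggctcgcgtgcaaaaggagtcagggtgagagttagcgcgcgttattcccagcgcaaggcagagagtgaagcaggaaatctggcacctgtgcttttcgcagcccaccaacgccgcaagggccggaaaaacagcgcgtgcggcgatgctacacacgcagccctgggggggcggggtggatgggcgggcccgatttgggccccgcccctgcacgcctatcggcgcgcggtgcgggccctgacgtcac
A match of letters describes the sequence only, and no binding was measured in these tissues.

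In WT pups the 7 genes spanned a wide range of levels, and 5 of them differed between liver and lung. Compared per kb of exon (the union of exons in GENCODE M21), *Bhlhe40* was highest in WT liver at 24.0 ± 1.69 CPM per kb (SD, n = 3), followed by *Hlf* at 11.7 ± 1.38, *Tef* at 10.2 ± 1.92 and *Nfil3* at 7.90 ± 0.934 CPM per kb. *Dbp* was at 1.30 ± 0.244, *Ciart* at 0.791 ± 0.360 and *Bhlhe41* at 0.0767 ± 0.0308 CPM per kb. Along this order the libraries of *Hlf* and *Tef*, of *Tef* and *Nfil3* and of *Dbp* and *Ciart* overlapped, and those of the other neighbours did not. In WT lung the order of the levels was *Tef* (13.9 ± 1.77 CPM per kb), *Nfil3* (12.9 ± 1.21), *Bhlhe40* (4.99 ± 0.510), *Hlf* (1.38 ± 0.179), *Dbp* (1.12 ± 0.229), *Ciart* (0.901 ± 0.118) and *Bhlhe41* (0.416 ± 0.0757). *Tef* and *Nfil3*, *Hlf* and *Dbp*, and *Dbp* and *Ciart* overlapped with each other there.

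**Figure D1:**
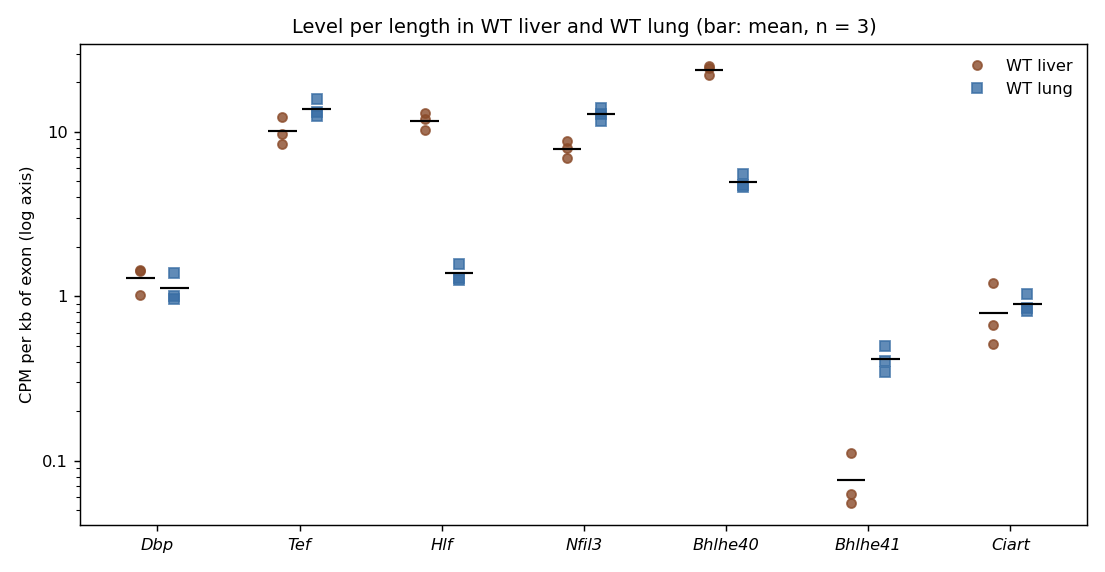
Level of the 7 genes in WT liver (circles) and WT lung (squares), in CPM per kb of exon on a log axis, with 1 point a library and a bar at the mean of 3. *Hlf* and *Bhlhe40* sit higher in every liver than in any lung, *Bhlhe41* sits higher in every lung, and *Dbp* and *Ciart* overlap.

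Between the WT tissues, *Hlf* and *Bhlhe40* were lower in lung and *Nfil3*, *Tef* and *Bhlhe41* were higher. *Hlf*, which encodes hepatic leukemia factor, was at 86.8, 68.6 and 80.0 CPM in WT liver and at 10.6, 8.63 and 8.40 CPM in WT lung, 8.59-fold lower in lung (log2 fold change −3.10 ± 0.13 SE, edgeR adjusted p = 4.6e-08). *Bhlhe40* was 4.85-fold lower in lung (−2.28 ± 0.10, adjusted p = 6.09e-08). *Bhlhe41*, its paralogue, went the other way and was 5.27-fold higher in lung (2.40 ± 0.31, adjusted p = 6.69e-05), although it rested on 9 to 22 counts in each WT liver. *Nfil3* was 1.62-fold higher (0.69 ± 0.12, adjusted p = 0.000493) and *Tef* 1.35-fold higher (0.43 ± 0.15, adjusted p = 0.0251) in lung. For *Tef* the difference did not pass the threshold without WT liver 2 (0.31), WT liver 3 (0.39) or WT lung 1 (0.32). *Dbp* (−0.23 ± 0.22, adjusted p = 0.353) and *Ciart* (0.16 ± 0.31, adjusted p = 0.65) did not pass the threshold, and their libraries overlapped between the tissues. Of all 15635 genes tested between the WT tissues 77.0% were called (adjusted p below 0.05 and at least 1.2-fold), so 5 of 7 is near that background. Two-sided exact permutation tests of 3 libraries against 3 cannot go below p = 0.1, the value they gave for each of the 5 genes. These tests share the WT libraries with the null against WT values of each tissue. The *Bhlhe40* share of the DEC transcripts, per kb, was 99.7 ± 0.112% in WT liver and 92.3 ± 0.751% in WT lung.

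In null liver the 7 genes did not move together, and *Hlf* was the only member that was lower in each null library than in each WT library. Of the 7 genes, 3 were called between null and WT liver, *Hlf* lower and *Nfil3* and *Ciart* higher, against 26.9% of 14343 genes tested (13.5% higher and 13.4% lower in null). Null and WT libraries did not overlap for 4 of the 7 genes, against 46.6% of all genes. In null lung all 7 genes were higher than in every WT lung, against 16.4% of 15591 genes with non-overlapping and higher values and 36.0% with non-overlapping values in either direction. Of the 7 genes, 1, *Bhlhe40*, was called in lung, against 0.327% of all genes. Without null lung 1, all 7 genes were called higher, against 37.0% of 15885 genes called in either direction and 18.0% called higher. The genes were chosen with these contrasts in view, so nothing is read from the counts.

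**Figure D2:**
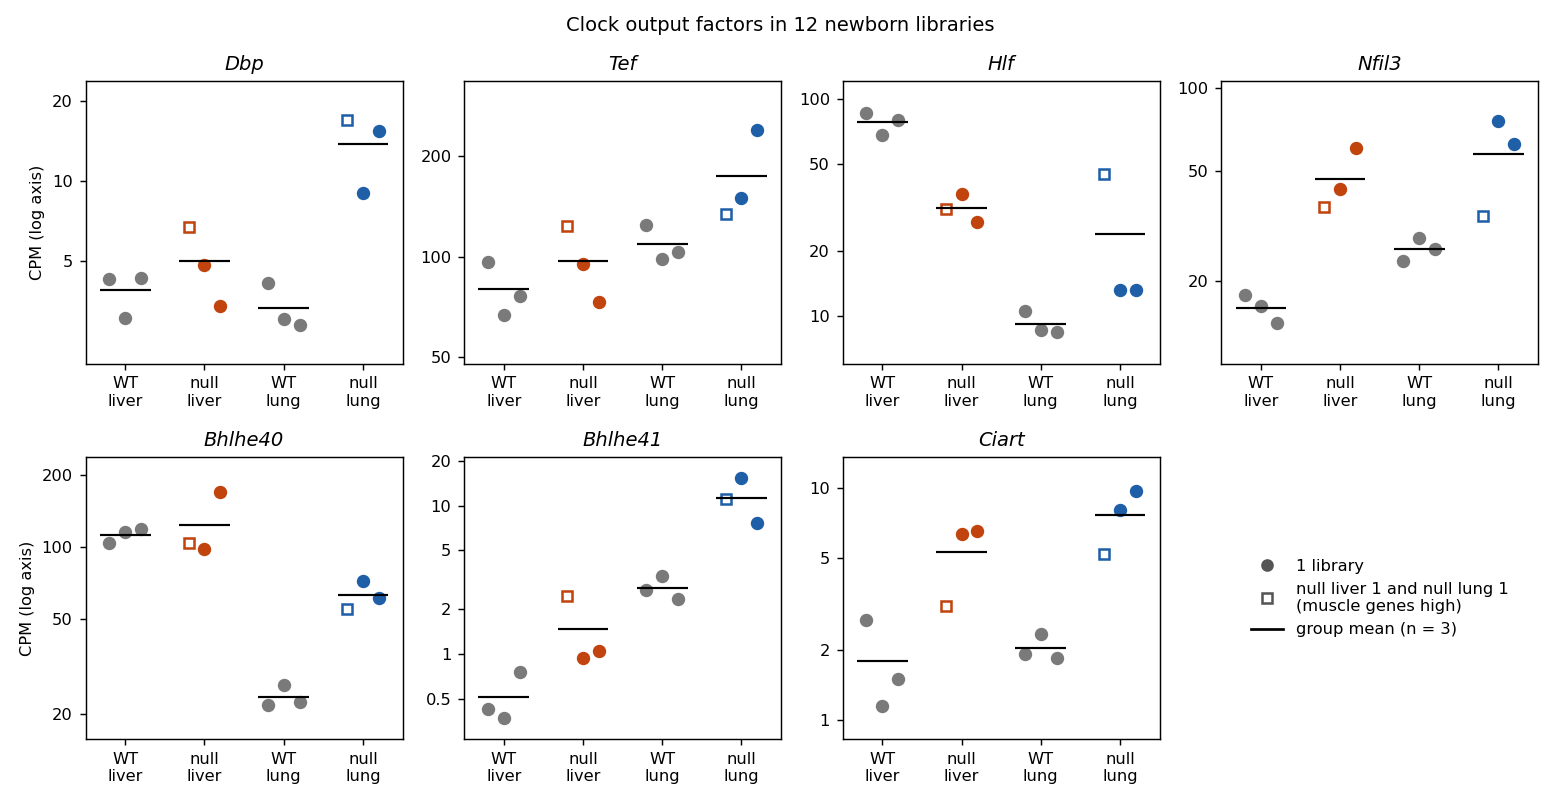
CPM (log axis) of each of the 7 genes in the 12 libraries, with 1 point a library and a line at the mean of 3. Open squares mark null liver 1 and null lung 1, the libraries with high muscle genes. The null lungs sit above the WT lungs in each panel, and *Hlf* in null liver sits below WT liver.

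*Hlf* differed in opposite directions in the 2 tissues. In liver it stood at 86.8, 68.6 and 80.0 CPM in WT and at 31.1, 36.5 and 27.2 CPM in null, and all 3 null values lay below all WT values (log2 fold change −1.32 ± 0.14 SE, or 2.49-fold lower). Null liver 1, with its muscle transcripts, lay between the other null livers, and the value without it was −1.29 ± 0.18. In lung *Hlf* stood at 10.6, 8.63 and 8.40 CPM in WT and at 45.0, 13.1 and 13.2 CPM in null. The highest value was that of null lung 1, the library with 478 CPM of lung epithelium markers, while the other null lungs lay close together just above the WT range. The log2 fold change in lung was 1.38 ± 0.53 with null lung 1 and 0.51 ± 0.16 without it. The part of muscle transcripts in the value of null lung 1 was not tested.

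*Tef*, the thyrotroph embryonic factor, was the most abundant PAR bZIP transcript per kb in every group other than WT liver. In liver it stood at 96.5, 66.9 and 76.3 CPM in WT and at 124, 94.8 and 73.1 CPM in null, and the groups overlapped (log2 fold change 0.27 ± 0.21, or 0.08 ± 0.19 without null liver 1). In lung it stood at 124.7, 98.6 and 103 CPM in WT and at 134, 150 and 240 CPM in null. All null lungs were above the WT lungs, the lowest of them by a narrow margin (0.69 ± 0.26, or 0.84 ± 0.20 without null lung 1).

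*Dbp*, the D-site albumin promoter binding protein, was low in newborn tissue, with 74 to 231 counts in each WT library. In liver it stood at 4.29, 3.05 and 4.34 CPM in WT and at 6.75, 4.86 and 3.40 CPM in null. These groups overlapped, and the log2 fold change of 0.35 ± 0.29 went to 0.09 ± 0.27 without null liver 1, which held the highest value. In lung it stood at 4.14, 3.03 and 2.89 CPM in WT and at 17.0, 8.99 and 15.5 CPM in null. The lowest null lung was above 2 times the highest WT lung, and the log2 fold change was 2.05 ± 0.32 (4.14-fold), or 1.86 ± 0.27 without null lung 1.

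*Nfil3*, the repressor at the same D-boxes, was higher in null than in WT libraries of both tissues. In liver it stood at 17.8, 16.2 and 14.0 CPM in WT and at 37.0, 43.1 and 61.0 CPM in null, and the lowest null liver lay above 2 times the highest WT liver (log2 fold change 1.55 ± 0.20, or 1.71 ± 0.18 without null liver 1). In lung it stood at 23.6, 28.5 and 26.2 CPM in WT and at 34.4, 75.9 and 62.8 CPM in null. Null lung 1 held the lowest of the null values here, and the log2 fold change was 1.14 ± 0.29 with it and 1.40 ± 0.13 without it. *Nfil3* is also known for its part in the development of natural killer and innate lymphoid cells. The 7 markers of those cells summed to 34.9, 22.0 and 29.2 CPM in WT liver and 17.0, 19.4 and 16.6 CPM in null liver, with none of them at 0 in a whole group, and their part in the *Nfil3* values was not tested.

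Protein levels and binding at D-boxes were not measured, so only RNA of the repressor and the activators can be compared. Levels per kb also depend on the lengths used, which join the exons of all annotated transcripts of a gene. The RNA was described by *Nfil3* over the summed *Dbp*, *Tef* and *Hlf*, each per kb. This ratio was 0.329, 0.403 and 0.299 in WT liver and 0.806, 1.11 and 2.08 in null liver, so that all null livers lay above the WT livers. In lung it was 0.619, 0.949 and 0.841 in WT and 0.577, 1.56 and 0.823 in null, and the groups overlapped. The sum of the activators in liver was 26.7, 19.8 and 23.1 CPM per kb in WT and 22.7, 19.1 and 14.5 in null, which also overlapped. The make-up of that sum differed between null and WT liver. The *Hlf* share was 50.8 ± 1.83% in WT liver and 25.7 ± 4.51% in null liver, and the *Tef* share 43.6 ± 2.09% and 65.5 ± 3.51%. In WT lung *Tef* made up 84.8 ± 0.689% and *Hlf* 8.43 ± 0.263%. The *Dbp* share was 6.28 to 7.35% in the WT lungs and 12.5 to 19.3% in the null lungs.

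**Figure D3:**
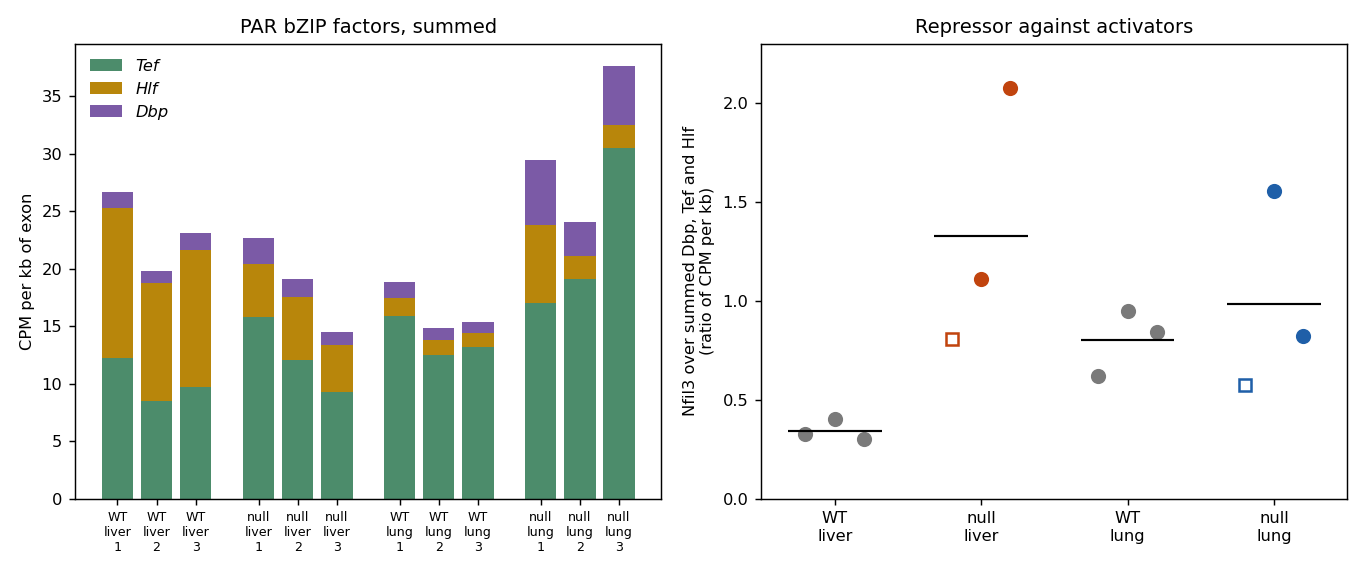
Left, the summed level of *Tef*, *Hlf* and *Dbp* in each of the 12 libraries as stacked bars, in CPM per kb of exon. Right, the ratio of *Nfil3* to that sum, with 1 point a library, open squares for null liver 1 and null lung 1, and a line at the mean of 3. The *Hlf* block shrinks in null liver, and the ratio is at or below 0.403 in WT liver and at or above 0.806 in null liver.

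The DEC repressors were higher in null lung, and only the scarcer of the pair kept null and WT apart in liver. *Bhlhe40* in liver stood at 104, 116 and 119 CPM in WT and at 104, 98.3 and 171 CPM in null. The groups overlapped, with null liver 3 alone above the WT range, and the log2 fold change of 0.14 ± 0.22 turned to −0.17 without that library and was 0.26 ± 0.21 without null liver 1. In lung *Bhlhe40* stood at 21.8, 26.2 and 22.4 CPM in WT and at 54.9, 71.8 and 61.3 CPM in null. The lowest null lung was above 2 times the highest WT lung (1.41 ± 0.15, or 1.49 ± 0.12 without null lung 1). The call of *Bhlhe40* in lung was lost without any 1 of the other 5 lungs, with log2 fold changes of 1.32 to 1.5.

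*Bhlhe41* in liver stood at 0.422, 0.371 and 0.752 CPM in WT and at 2.45, 0.944 and 1.05 CPM in null, from 9 to 65 counts a library. The groups did not overlap, but the highest value was that of null liver 1, and the log2 fold change was 1.5 ± 0.48 with it and 0.94 ± 0.41 without it. In lung *Bhlhe41* stood at 2.71, 3.34 and 2.34 CPM in WT and at 11, 15.3 and 7.63 CPM in null. All null lungs exceeded 2 times the highest WT lung, and the log2 fold change was 2.01 ± 0.32, or 2.02 ± 0.30 without null lung 1.

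*Ciart*, the gene with 3 E-boxes upstream, was higher in the null libraries of both tissues. In liver it stood at 2.71, 1.16 and 1.5 CPM in WT and at 3.09, 6.33 and 6.51 CPM in null, with null liver 1 close to the highest WT liver (log2 fold change 1.56 ± 0.42, or 1.84 ± 0.34 without null liver 1). The call of *Ciart* in liver was lost without WT liver 2 (1.32), WT liver 3 (1.44), null liver 2 (1.40) or null liver 3 (1.38). In lung it stood at 1.92, 2.34 and 1.85 CPM in WT and at 5.19, 8.06 and 9.77 CPM in null. The lowest null lung, null lung 1, lay above 2 times the highest WT lung (1.91 ± 0.31, or 2.13 ± 0.20 without null lung 1). *Ciart* lies on chromosome 3 at 95878503 to 95882251 (GRCm38), 4.68 Mb from *Man1a2*.

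**Figure D4:**
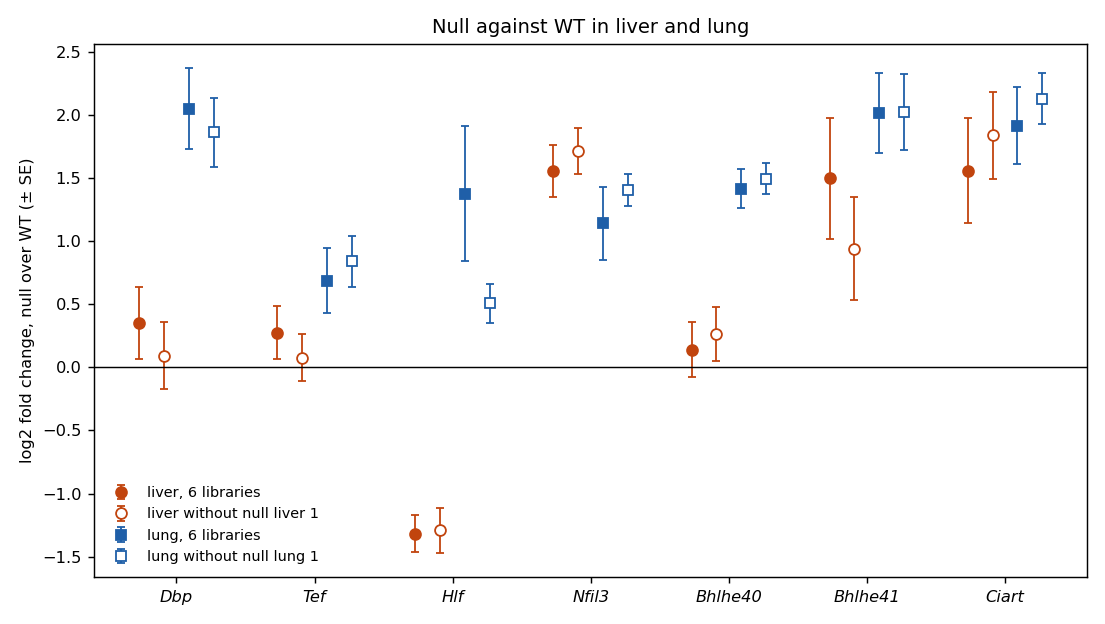
Log2 fold change of null over WT (± SE, edgeR) for each of the 7 genes in liver (circles) and lung (squares), with filled symbols for all 6 libraries of a tissue and open symbols without null liver 1 or null lung 1. *Hlf* is at −1.32 in liver and above 0 in lung, and *Dbp*, *Tef* and *Bhlhe40* lie nearer to 0 in liver than in lung.

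The difference of the null effect between the tissues, lung minus liver, was 2.68 ± 0.58 for *Hlf*, 1.68 ± 0.45 for *Dbp* and 1.28 ± 0.29 for *Bhlhe40* on the log2 scale. It was 0.50 ± 0.61 for *Bhlhe41*, 0.40 ± 0.36 for *Tef*, 0.35 ± 0.54 for *Ciart* and −0.41 ± 0.38 for *Nfil3*. None of the 7 genes was called by edgeR, against 0.371% of 16155 genes, while 3 had an unadjusted p below 0.05. DESeq2 called those 3, *Hlf*, *Dbp* and *Bhlhe40*, against 617 of 20414 genes. Without null lung 1, *Hlf* (1.84 ± 0.21) and *Bhlhe40* (1.38 ± 0.29) were called, against 813 of 16257 genes. With null liver 1 left out as well, *Hlf* (1.80 ± 0.23), *Dbp* (1.77 ± 0.41) and *Bhlhe40* (1.24 ± 0.27) were called, against 840 of 16216 genes. With the library number as a block the 60 genes called among all genes went to 0 (2224 at an unadjusted p below 0.05). The choice of the 7 genes named this difference, so these values are a description too.

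The gene lists that follow were also chosen with earlier results of these data known. Their null against WT calls and adjusted p values are given as descriptions and not as tests. The core clock genes gave the setting of the values of the 7 genes. In null liver 10 of the 13 core clock genes tested were called, 7 of them higher and 3 lower, where 26.9% of all genes were called. The median log2 fold change of the 13 was 0.80, against 0.02 over all genes. With all 12 libraries in 1 fit, 6 of 14 were called, 5 of them higher, against 1921 of 16155 genes called, 954 of them higher. *Nr1d1*, which encodes the repressor REV-ERBα, rose from 18.9 ± 3.86 to 95.4 ± 2.94 CPM (SD, n = 3; 2.33 ± 0.16 SE, edgeR adjusted p = 0.00164). *Cry2* rose by 1.98 ± 0.19, *Per1* by 1.67 ± 0.19 and *Nr1d2* by 1.45 ± 0.09, each a repressor in the loop. *Per2*, *Cry1* and *Arntl2* fell. Without null liver 1, 8 of 13 were called, *Per2* no longer among them, against 3451 of 14501 genes, and *Nr1d1* was at 2.37 ± 0.18. In lung 2 of 14 were called, *Nr1d1* (2.82 ± 0.33, adjusted p = 0.04997) and *Nr1d2* (2.00 ± 0.18, adjusted p = 0.04997), with a median of 0.67 against 0.06 over all genes and 0.327% of all genes called. Both calls were lost, with 0 of 14, when any 1 of the other 5 lungs was left out, with the replicate block, with DESeq2 size factors, with a minimum of 1 count and with the most abundant genes left out of the scaling. DESeq2 called 6 of 14, all higher, against 2355 of 20021 genes called, 1140 of them higher. Without null lung 1, 10 of 14 were called, all of them higher, against 37.0% of all genes called and 18.0% called higher, and *Nr1d1* was at 3.0 ± 0.26 and *Nr1d2* at 2.13 ± 0.12.

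Other clock output genes were called in 1 direction in liver. Of the 10 tested, 5 rose and none fell (median 1.0), against 13.5% of all genes called higher and 13.4% lower. Without WT liver 3, 3 rose, against 804 of 14529 genes called higher. Among the 5 were *Lpin1*, a phosphatidate phosphatase (2.23 ± 0.54, edgeR adjusted p = 0.0226), *Nampt*, the NAD salvage enzyme (1.2 ± 0.16), *Tsc22d3*, a glucocorticoid-induced factor (1.16 ± 0.21), and *Wee1*, a cell cycle kinase (0.83 ± 0.16). Without null liver 1, 7 of 10 were called higher, against 1730 of 14501 genes called higher. These 4 genes stood at 2.33, 1.31, 0.93 and 0.79 in the same order. In lung 0 of 9 were called by edgeR (8 at an unadjusted p below 0.05). DESeq2 called 7 of 11 in lung, all higher, against 1140 of 20021 genes called higher. Without null lung 1, 9 of 10 were called, all higher, against 18.0% of all genes. Genes known to be driven by the PAR bZIP factors gave 1 call of 13 in liver, *Nr1i3*, the xenobiotic receptor CAR, which fell from 45.9 ± 3.75 to 24.5 ± 7.12 CPM (−0.91 ± 0.20, adjusted p = 0.0169), and the median was −0.47. That share is below the 26.9% of all genes called in liver. DESeq2 called 4 of 13, all lower, *Nr1i3*, *Pdxk*, *Ppara* and *Alas1*, against 2154 of 19130 genes called lower. The replicate block and the upper-quartile factors gave 3 each, all lower, against 1620 and 2666 of 14343 genes called lower. Without null liver 1 there were 3 calls, all lower, *Nr1i3* (−0.94 ± 0.23), *Ppara* and *Cyp7a1*, against 1721 of 14501 genes called lower. There were 0 without WT liver 2, without WT liver 3 or with all 12 libraries in 1 fit. In lung 0 of 7 were called by edgeR (3 at an unadjusted p below 0.05) and 0 of 12 by DESeq2 (4), and 3 of 7 without null lung 1, with 1 higher and 2 lower, against 37.0% of all genes.

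Related bZIP and bHLH families were examined beside them. Of the 6 C/EBP genes, whose proteins are bZIP factors too, *Cebpg* alone was called in liver by edgeR (−0.55 ± 0.15, adjusted p = 0.0297), against 26.9% of all genes. DESeq2 called 3 of 6 in liver, *Cebpd* and *Cebpa* higher and *Cebpg* lower, against 4528 of 19130 genes called. The call of *Cebpg* by edgeR was lost without WT liver 1, WT liver 3, null liver 2 or null liver 3. In the C/EBP family 0 of 6 were called in lung by edgeR or DESeq2 (0 and 2 at an unadjusted p below 0.05). Of the HES and HEY genes, relatives of the DEC repressors, 0 of 5 tested were called by edgeR in either tissue (0 in liver and 1 in lung at an unadjusted p below 0.05). DESeq2 called 0 of 9 in liver and 1 of 9 in lung, against 4528 of 19130 and 2355 of 20021 genes. Without null lung 1, 2 of 6 C/EBP and 3 of 5 HES and HEY genes were called in lung, against 37.0% of all genes. Without null liver 1, 3 of 6 and 1 of 5 were called in liver, against 3451 of 14501 genes.

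**Figure D5:**
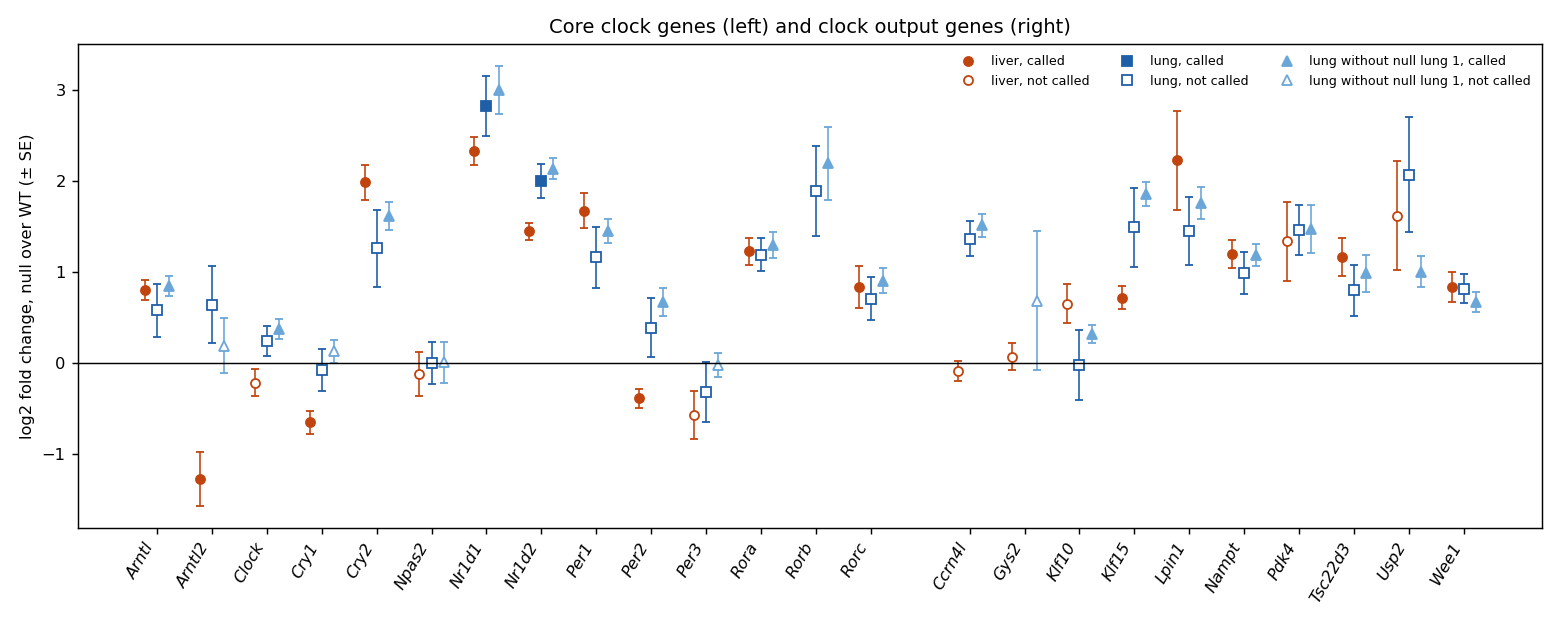
Log2 fold change of null over WT (± SE, edgeR) for the core clock genes on the left and other clock output genes on the right, in liver (circles), lung (squares) and lung without null lung 1 (triangles), with filled symbols for called genes. *Nr1d1* is highest of the core clock genes in both tissues (2.33 and 2.82), and *Arntl2* is the lowest in liver.

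The genes whose libraries followed each factor most closely were sought by the lower of the Pearson correlations over the 6 livers and over the 6 lungs, among 11771 genes. The points share the split into null and WT and the muscle-rich libraries, so these are descriptions only. *Nfil3* was followed by *Etf1*, *Abhd13* and *Rab5a* (lower r 0.988 to 0.993) and *Hlf* by *Plin5*, *Stard7* and *Fam195a* (0.955 to 0.975). *Ciart* was followed by *Pabpc1*, *Mapk1ip1l* and *Rfxap* (0.962 to 0.964), *Bhlhe40* by *Gnl2*, *Hspa5* and *Lsg1* (0.894 to 0.938) and *Bhlhe41* by *Rcsd1*, *Rab11fip5* and *Igf1r* (0.927 to 0.931). *Dbp* was followed by *Adck3*, *Pde10a* and *Scmh1* (0.879 to 0.914), and *Tef* by *Wdtc1*, *Repin1* and *Fam168b* (0.868 to 0.890). Among the 7 genes themselves, *Nfil3* and *Hlf* ran opposite over the 6 livers (r = −0.96) and *Dbp* ran with *Tef* (r = 0.94), while over the 6 lungs *Bhlhe40* ran with *Ciart* (r = 0.97) and *Bhlhe41* (r = 0.97).

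Reads of some of the 7 genes could be shared with a neighbour. *Dbp* (chromosome 7, 45705088 to 45710203, GRCm38) overlaps *Sphk2* on the other strand, and *Tef*, *Bhlhe40*, *Bhlhe41* and *Ciart* each overlap a non-coding or unassigned transcript on the other strand. *Hlf* (chromosome 11, 90336536 to 90390895) and *Nfil3* (chromosome 13, 52967209 to 52981073) overlap no other annotated gene. The strand setting used in counting was not given in the sources used here, so reads of such overlapping pairs cannot be told apart.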

How the data were processed

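Poly-A RNA libraries made with a stranded kit were sequenced from 12 newborn mouse samples in 4 groups of 3. Per the labels, the authors ran FastQC, aligned reads to mm10 with STAR 2.5.2a and used DESeq2. The deposited values are raw counts per gene symbol, and the counting program, annotation and strand setting were not given in the sources used here. Of 24421 listed names, 27 had been turned into dates. No pair of libraries within a group was a duplicate (lowest chi-square per gene 15.4), and pairs across groups were not compared.

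Counts were fitted over all genes with edgeR 4.0.16 in R 4.3.3 (filterByExpr, TMM, quasi-likelihood F test, Benjamini-Hochberg), for null against WT in each tissue, the difference between tissues, and WT lung against WT liver. Genes were called at an adjusted p below 0.05 and at least 1.2-fold, the thresholds of the study. Correlations used log2(CPM + 0.5). The fits were tested on simulated counts with the same dispersion for every gene and no outlier library. That test does not cover a library such as null lung 1. Alternatives were DESeq2 1.42.0, other scaling factors, filters on low counts, all libraries in 1 fit, a replicate block and leaving out each library; the fit without both muscle-rich libraries was chosen after seeing the data. Over 14242 genes, same-numbered livers and lungs deviated together (r 0.211 to 0.292 in WT, 0.393 to 0.495 in null). Null liver 1 and null lung 1 both held muscle and cartilage transcripts, so the null values cannot show a pairing by pup. Differently numbered livers and lungs were not compared, and any pairing is inferred from the data.

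The 7 genes and the gene lists were chosen with earlier results of these data known. Named genes were the 7, up to 4 called genes a list and tissue with the largest fold change, and the 3 most correlated genes for each of the 7. The listed genes named beyond that rule (*Per2*, *Cry1*, *Arntl2*, *Ppara*, *Cyp7a1*, *Pdxk*, *Alas1*, *Cebpd* and *Cebpa*) were chosen after their values were seen. Lengths came from GENCODE M21, which matched 95.6% of the names. The values after ± are SDs over 3 libraries or SEs of the edgeR fits, and both include the spread between libraries.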

Additional observations from a re-analysis of the deposited data

Results flagged for a closer look

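*Hlf* was set apart because its null against WT differences in the tissues pointed in opposite directions. All 3 null livers lay below all 3 WT livers, at 27.2 to 36.5 against 68.6 to 86.8 CPM, and all 3 null lungs lay above all 3 WT lungs, at 13.1 to 45.0 against 8.40 to 10.6 CPM. The difference of the log2 fold changes, lung minus liver, was 2.68. It was 1.84 without null lung 1, which held the highest lung value, and the genes were chosen with this difference known, so it has no independent test here. The share of all genes with such opposite, non-overlapping differences was not counted. With all libraries edgeR called *Hlf* in liver, but not in lung or for the difference between tissues. Without null lung 1 *Hlf* was called in lung and for that difference.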

How the results depend on the processing

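Over all genes, null against WT liver gave 3856 calls (1931 higher, 1925 lower), 1921 with all 12 libraries in 1 fit and 1641 to 3451 when 1 library was left out, and upper-quartile factors moved the split to 1434 higher and 2666 lower. Null against WT lung gave 51 calls, but 2355 by DESeq2, 2 with DESeq2 size factors, 109 with upper-quartile factors, 5 with the most abundant genes left out of the scaling, 0 with a minimum of 1 count (4096 at an unadjusted p below 0.05), 210 with at least 10 counts in every library, 2284 with all 12 libraries in 1 fit, and 0 to 5881 with 1 library left out, the highest without null lung 1. The difference between tissues gave 60 calls, 617 by DESeq2, 33 with a minimum of 1 count, 92 with at least 10 counts in every library, 840 without both muscle-rich libraries and 0 to 813 with 1 library left out. Of the 7 genes, the 1 called in lung became 5 by DESeq2 and with all 12 libraries in 1 fit, 4 with at least 10 counts in every library, 0 with DESeq2 size factors, with the most abundant genes left out or with a minimum of 1 count (7 of 7 at an unadjusted p below 0.05 in each), and 0 to 7 with 1 library left out. For the difference between tissues, 0 of 7 became 3 by DESeq2, 3 without both muscle-rich libraries and 0 to 2 with 1 library left out. The cause of these changes was not tested.

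With the library number as a replicate block, calls over all genes went to 0 in lung (2743 at an unadjusted p below 0.05) and 0 for the difference between tissues (2224), and the *Bhlhe40* call in lung was lost (0 of 7, with 6 at an unadjusted p below 0.05). In liver the 3 of 7 called became 4 by DESeq2 (with *Bhlhe41*), against 4528 of 19130 genes. They became 2 with all 12 libraries in 1 fit (without *Hlf*, −1.31) and 2 or 3 with 1 library left out. The block gave 3304 calls in liver and kept *Hlf* and *Nfil3* but not *Ciart*, and between WT tissues it changed no call of the 7. Same-numbered WT and null libraries did not deviate together (r −0.021 to 0.146 in liver, −0.047 to 0.102 in lung), so these numbers need not pair them. Signs turned with 1 library left out for *Bhlhe40* in liver (−0.17 to 0.26, negative without null liver 3), for *Ciart* in the difference between tissues (−0.076 to 0.58, negative without WT liver 1) and for *Ciart* between WT tissues (−0.070 to 0.58, negative without WT liver 2). Depth limits *Bhlhe41*, with 9 to 22 counts in WT liver.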
